A study of Ictidomys tridecemlineatus with 15 samples.

Results

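The activity genes Arc, Npas4, Egr1, Egr2, Egr4, Nr4a1, Nr4a2 and Nr4a3 were followed across the hibernation cycle of the thirteen-lined ground squirrel. They were taken by gene symbol from a list of 9, and 8 were among the 16993 genes of the table. Egr3, the remaining one, was not analysed here. RNA came from the supraoptic nucleus, the hypothalamic nucleus of vasopressin and oxytocin neurons, in 3 states with 5 biological replicates each. Active animals were outside hibernation, torpid animals were hibernating and cold, and animals in interbout arousal (IBA) were hibernating and in the brief phase of warm body between bouts of torpor. The tissue was cut out of brain slices by hand, so all its cell types were sequenced together, and each library is one replicate of one state. The sources used here do not give sex, age or time of collection, nor whether every replicate is a separate animal, so p-values measure the spread between these libraries.

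The members belong to the immediate early genes, which cells transcribe within minutes of a stimulus and without new protein synthesis. In neurons, calcium entry and cAMP signalling activate kinases that act on the transcription factors CREB, SRF and MEF2, and these turn the genes on. The transcripts are short-lived, so a level reflects recent stimulation as well as decay. In the supraoptic nucleus of rodents, osmotic challenge is a textbook inducer of such genes. Arc encodes a synaptic protein that drives the removal of AMPA receptors from the synapse. The other members encode transcription factors: Npas4 is selective for calcium signals in neurons, the Egr genes encode zinc finger factors, and the Nr4a genes encode orphan nuclear receptors.

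Levels are the authors' normalised CPM, which are read counts scaled to the library's total and to a further factor per library. The libraries held 15844561 to 26113341 reads, recovered from the deposited values, with scaling factors from 0.936 to 1.04, so that 1 read was worth 0.0409 to 0.0626 normalised CPM. Testing was limited to the 15501 genes that reached 1 in 5 or more libraries, 7 members among them. Egr2 reached 1 in no library and was not tested with the others. Each change is the difference between 2 states in mean log2(value + 1), given with its standard error (SE), and limma-trend gave p-values adjusted over all 15501 genes. The threshold was an adjusted p of 0.05. Because 1 was added before taking logs, changes of low genes are understated. Levels of different genes are not compared with each other, since no transcript lengths were used. In whole tissue, fewer cells of a type and less RNA per cell cannot be told apart. Cell markers moved with the states as well. In torpor against active 8 of 10 oligodendrocyte markers rose, and 3 of 12 neuron markers rose and 1 fell. Over all genes 19.5% passed in this comparison. Summed, the oligodendrocyte markers spanned 2909 to 5248 among active libraries, 3562 to 9338 among IBA and 4216 to 14468 among torpor libraries. The neuron markers spanned 3716 to 4266, 3590 to 4297 and 4385 to 4910 in the same order, torpor without overlap with the other states. Of the vascular markers 3 of 7 endothelial and 4 of 6 mural genes fell, of the astrocyte markers 1 of 5 fell, Gfap, and of the microglia markers 2 of 6 rose. The part of these differences in the results was not tested. Of 8 markers of magnocellular neurons 6 were measured, and vasopressin and oxytocin were not analysed here. Of the 6, 2 fell in torpor against active, Pou3f2 by 0.77 ± 0.14 and Caprin2 by 0.70 ± 0.20 (limma adjusted p = 0.00125 and 0.0234). Summed, the 6 spanned 950 to 1310 among active libraries, 683 to 1228 among IBA and 722 to 1340 among torpor libraries. Gal was at 0 in 1 IBA library, and no other marker on the cell type lists was at 0 in any library.

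The mean of every member was lowest in torpor, though the median of Egr2 was 0.442 in torpor and 0.362 in the active state. Arc, Npas4, Egr1 and Egr2 had their highest mean in IBA, and Egr4, Nr4a1, Nr4a2 and Nr4a3 in the active state. For Npas4 this rested on IBA library 1, without which the IBA mean was 1.63, below the active mean of 1.95. Few of the differences between states passed the threshold. In torpor against active, Nr4a1 and Nr4a2 fell, and in torpor against IBA, Arc fell. No member passed in IBA against active.

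**Figure D1:**
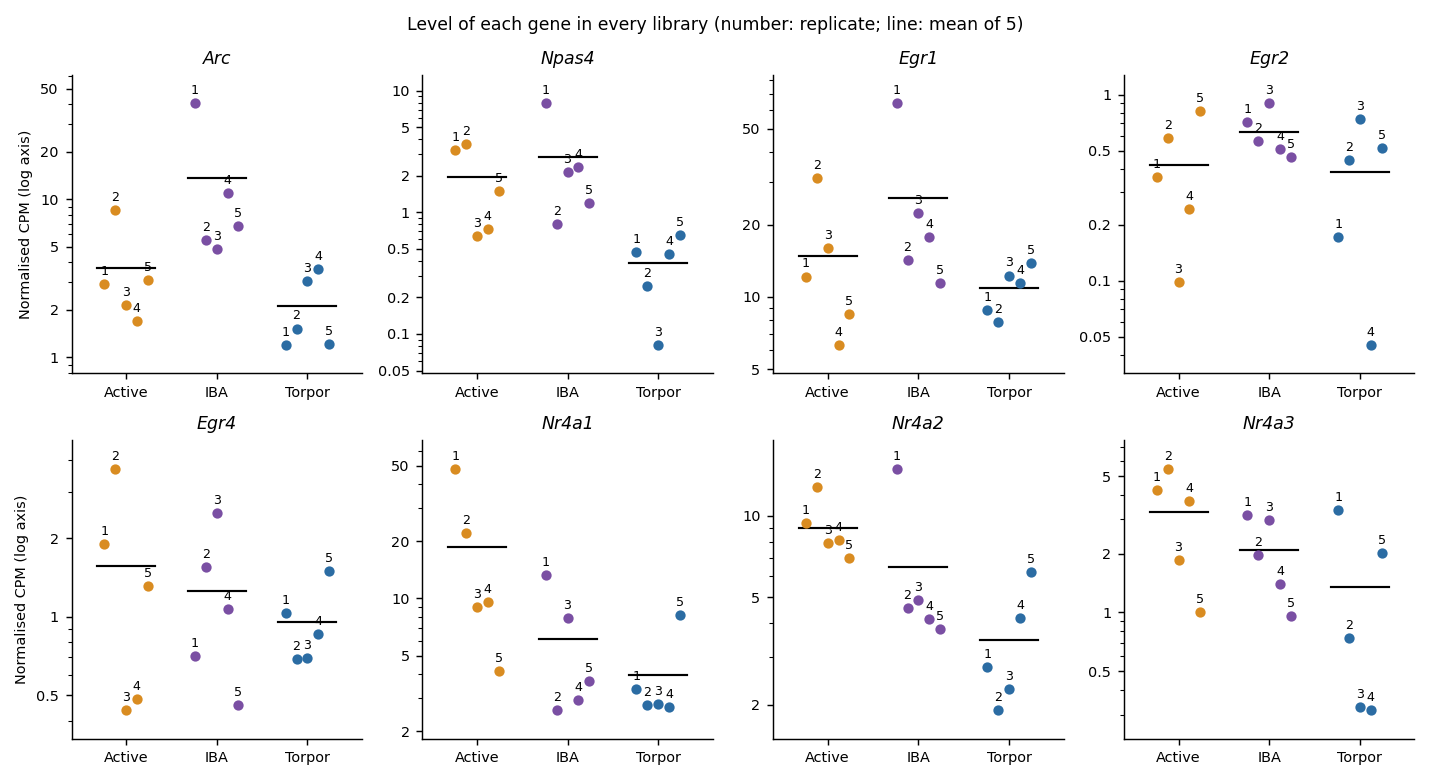
Normalised CPM (log axis, scaled separately per gene) of the 8 genes in each library, by state. Points are libraries with their replicate number and lines are means of 5. IBA library 1 is the highest of the IBA libraries for Arc, Npas4, Egr1, Nr4a1, Nr4a2 and Nr4a3, and torpor libraries of Arc and Npas4 all lie below those of IBA.

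Arc separated torpor from IBA. In IBA it stood at 40.5, 5.56, 4.82, 10.9 and 6.75 normalised CPM in libraries 1 to 5. In torpor it stood at 1.21, 1.52, 3.03, 3.63 and 1.22, so that every torpor library lay below the lowest IBA library. In the active state it stood at 2.89, 8.55, 2.15, 1.69 and 3.07. The active libraries other than library 2 lay below all IBA libraries and inside the torpor range. The means were 13.7 ± 15.1 in IBA, 3.67 ± 2.78 in the active state and 2.12 ± 1.13 in torpor (SD, n = 5 each). Behind these values stood 97 to 972 reads per library in IBA and 26 to 80 in torpor. Arc fell by 1.86 ± 0.48 on the log2 scale in torpor against IBA (SE, limma adjusted p = 0.0491). A two-sided exact permutation test of this gene alone gave p = 0.00794, the smallest that 5 against 5 libraries allow. The limma call lay close to the threshold, and it ended without any 1 of the 10 libraries (adjusted p between 0.0530 and 0.0973). Without IBA library 1 the IBA mean was 7.01 ± 2.73 (SD, n = 4), and the difference was −1.38 with an adjusted p of 0.0530.

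In IBA against active the difference of Arc was 1.37 ± 0.48 (limma adjusted p = 0.142, exact permutation p = 0.0397), and 2 of 5 IBA libraries lay above every active one. DESeq2 on the recovered reads gave an adjusted p of 0.0496 for it and edgeR 0.127. Without IBA library 1 it was 0.88, and without active library 2 the states did not overlap, with a difference of 1.66. In torpor against active Arc differed by −0.50 ± 0.48 (adjusted p = 0.501). In the authors' deposited table, whose joint test asks whether any of the 3 states differ, Arc had a false discovery rate of 0.0102, the lowest of the 8 genes.

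Npas4, the neuron-selective factor, was low throughout and lowest in torpor. The torpor libraries held 11, 5, 2, 10 and 14 reads of it, or 0.474, 0.246, 0.0818, 0.453 and 0.656 normalised CPM. All 5 lay below the lowest IBA library. Npas4 reached 1 in 7 libraries, none of them in torpor, and so passed the filter only through active and IBA libraries. The IBA libraries stood at 7.87, 0.800, 2.14, 2.37 and 1.19, and the active libraries at 3.25, 3.63, 0.635, 0.724 and 1.5. Active libraries 1 and 2 were high and libraries 3 and 4 close to the torpor range, with library 3 below torpor library 5. The means were 2.87 ± 2.87 in IBA, 1.95 ± 1.41 in the active state and 0.382 ± 0.222 in torpor (SD, n = 5). On the log2(value + 1) scale Npas4 differed by −1.26 ± 0.38 in torpor against IBA and by −0.97 ± 0.38 in torpor against active, with limma adjusted p = 0.0784 and 0.0789. The exact permutation test gave p = 0.00794 and 0.0159. These 2 results depended on the pseudocount and the test. With a pseudocount of 0.1 the differences were −2.35 and −1.93 (limma adjusted p = 0.0398 and 0.0302). On the recovered reads edgeR gave −2.91 and −2.35 with adjusted p = 0.0330 and 0.0264, and DESeq2 gave adjusted p = 6.63e-04 and 0.00270. Limma-voom on the same reads did not call it, at −2.96 and −2.64 (adjusted p = 0.0889 and 0.0742). The authors' deposited table gives Npas4 a false discovery rate of 0.0212 in its joint test. Between IBA and active, Npas4 differed by 0.28 ± 0.38 (adjusted p = 0.716), and without IBA library 1 the difference was −0.08.

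Among the Egr genes, none of the 3 comparisons passed. Egr1, the most widely used marker of the family, stood at 63.8, 14.3, 22.2, 17.7 and 11.4 in IBA. It stood at 12.2, 31.3, 15.9, 6.34 and 8.51 in the active state and at 8.83, 7.86, 12.3, 11.5 and 13.8 in torpor. The 5 torpor libraries lay close together, within 1.76-fold of each other, while the active libraries spanned 4.93-fold and the IBA libraries 5.58-fold. IBA library 5 lay below torpor libraries 3, 4 and 5, so the states overlapped. In torpor against IBA the difference was −0.93 ± 0.43 (limma adjusted p = 0.246, exact permutation p = 0.0397). For IBA against active it was 0.68 ± 0.43 (adjusted p = 0.398), and 0.29 without IBA library 1. In torpor against active it was −0.25 ± 0.43 (adjusted p = 0.723), and 0.06 without active library 2. The authors' deposited table gives Egr1 a false discovery rate of 0.114.

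Egr4, a factor enriched in brain, showed no order of states beyond its spread. In the active state it ranged from 0.440 to 3.69 (median 1.31), with a span from 0.459 to 2.49 in IBA (median 1.1) and from 0.688 to 1.5 in torpor (median 0.861). The torpor range lay within the active range. Its largest difference was −0.26 ± 0.29 in torpor against active (adjusted p = 0.566). Egr2, which also directs myelination in Schwann cells, held 1 to 18 reads per library. It stood at 0.420 ± 0.284 in the active state, 0.628 ± 0.176 in IBA and 0.382 ± 0.276 in torpor (SD, n = 5). Fitted without the filter, its differences ran from −0.25 in torpor against IBA to 0.21 in IBA against active (SE 0.16, limma adjusted p = 0.429 and 0.510). None of its differences passed.

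The Nr4a genes shared the order active, IBA, torpor. Nr4a2, also known as Nurr1 and required for dopamine neurons, gave the firmest result of the set. It stood at 9.36, 12.7, 7.91, 8.15 and 6.95 in the active state. In torpor it stood at 2.76, 1.92, 2.29, 4.17 and 6.18, every library below every active one. The IBA libraries stood at 14.9, 4.57, 4.87, 4.14 and 3.81. IBA library 1 lay above every active library and the other 4 below every active library. Nr4a2 fell by 1.22 ± 0.30 in torpor against active (limma adjusted p = 0.0107, exact permutation p = 0.00794). This call held with each of the 10 libraries left out in turn, with adjusted p from 0.00585 to 0.0304. It ended when the mean level of the oligodendrocyte or of the neuron markers was a covariate (adjusted p = 0.131 and 0.114), with differences of −1.29 and −1.39. These marker levels differed between the states themselves. The neuron level was 7.02 to 7.62 in active and 7.61 to 7.73 in torpor libraries, the oligodendrocyte level 6.59 to 7.47 and 7.37 to 8.87. A call lost with such a covariate cannot be told apart from a loss of precision. Between IBA and active Nr4a2 differed by −0.57 ± 0.30 (adjusted p = 0.313), and without IBA library 1 by −0.88 (adjusted p = 0.0890). In torpor against IBA it differed by −0.65 ± 0.30 (adjusted p = 0.247), and without IBA library 1 by −0.34. The authors' deposited table gives it a false discovery rate of 0.0520.

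Nr4a1, also known as Nur77 and induced in many cell types, varied most among active libraries. They stood at 48.1, 22.1, 9.03, 9.60 and 4.13, an 11.7-fold range. The torpor libraries stood at 3.32, 2.75, 2.78, 2.67 and 8.15, and 4 of them lay below the lowest active library. The IBA libraries stood at 13.3, 2.59, 7.91, 2.93 and 3.67. The IBA libraries overlapped with both other states. Nr4a1 fell by 1.65 ± 0.54 in torpor against active (limma adjusted p = 0.0460, exact permutation p = 0.0159). The call held without active library 5 or torpor library 5 and ended without any other single library, with adjusted p from 0.0527 to 0.101. It was also lost with either marker covariate (adjusted p = 0.452 for oligodendrocytes, 0.0772 for neurons), with differences of −1.16 ± 0.86 and −2.61 ± 0.72. In the authors' deposited table Nr4a1 had a false discovery rate of 0.0263. Between IBA and active it differed by −1.24 ± 0.54 (adjusted p = 0.226).

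Nr4a3, also known as Nor1, stood at 4.25, 5.45, 1.86, 3.74 and 1.00 in active libraries and at 3.16, 1.98, 2.98, 1.39 and 0.964 in IBA. In torpor it stood at 3.36, 0.737, 0.327, 0.317 and 2.01, with libraries 1 and 5 inside the active range and the other 3 below it. Those 3 held 15, 8 and 7 reads of Nr4a3. The difference between torpor and active was −0.90 ± 0.37 (limma adjusted p = 0.0936, exact permutation p = 0.0952). Without torpor library 1 it was −1.17 with an adjusted p of 0.0271, and without active library 5 it was −1.15 with an adjusted p of 0.0375. With all libraries Nr4a3 did not pass.

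**Figure D2:**
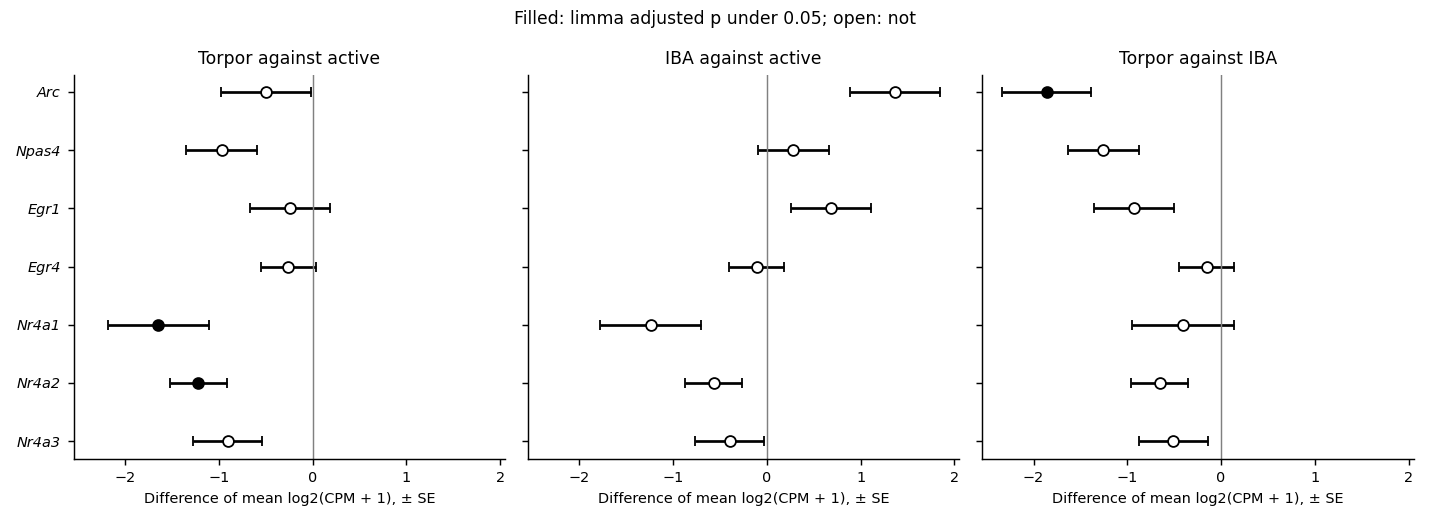
Differences of mean log2(normalised CPM + 1) with standard errors for the 7 genes tested, in the 3 comparisons of 5 against 5 libraries. Filled points have a limma adjusted p under 0.05: Nr4a1 and Nr4a2 in torpor against active, and Arc in torpor against IBA.

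In torpor against active 2 of the 7 members tested were called, both lower, beside 19.5% of all genes tested. The median difference of the 7 was −0.90, and 0.01 over all genes. All 7 lay below 0, as did 7615 of the 15501 genes. Libraries of torpor and active were fully separate for 1 member, Nr4a2, beside 12.2% of all genes. In torpor against IBA 1 of 7 was called, beside 2.94% of genes, with a median of −0.65 and all 7 below 0. Arc and Npas4 did not overlap there, beside 5.76% of genes. Npas4 passed the filter only through active and IBA libraries, so the filter favoured its low place in torpor. Its separation and direction are therefore not counted as support. Since torpor against IBA and torpor against active share the torpor libraries, their directions are not independent. In IBA against active limma called 0 of 7, beside 1.30% of genes. At an unadjusted p under 0.05, 2 of 7 passed (Arc and Nr4a1) and 19.7% of genes. DESeq2 called 1, Arc, and edgeR and limma-voom called 0. No member was without overlap between IBA and active, beside 7.01% of genes. In that comparison the median of the 7 was −0.11, with 4 below 0 and 3 above.

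The members varied widely between libraries of one state. For each of the 7 tested, the SD within states was larger than in 89.0% to 98.9% of genes within 0.25 log2 of its level. For Nr4a1 this SD was 0.94 on the log2 scale, against a median of 0.31 for its 987 genes of like level. For Nr4a2, at the low end, it was 0.54 against 0.31. The variation fell on particular libraries. Among the active libraries, library 2 was highest for Arc, Egr1, Egr4, Nr4a2, Nr4a3 and Npas4, and no member was lowest in it or in library 1. Among the IBA libraries, library 1 was highest for 6 of 8 members, the exceptions being Egr2 and Egr4, which were highest in library 3. IBA library 5 was lowest for Egr1, Egr2, Egr4, Nr4a2 and Nr4a3. Torpor library 5 was highest of its state for Egr1, Egr4, Nr4a1, Nr4a2 and Npas4, but its Arc of 1.22 was near the lowest of torpor.

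The libraries in which most members stood high also differed in their cell markers. Active library 2 had the highest mean log2 level of the magnocellular markers of all 15 libraries, 6.49, and the second lowest level of oligodendrocyte markers among active libraries, 6.76. Active library 3 was close behind in the magnocellular markers, at 6.47, and was the lowest active library for Egr2, Egr4 and Npas4. Active library 4 had the lowest oligodendrocyte level among active libraries, 6.59, and was the lowest of them for Arc and Egr1. The mean log2 level of the neuron markers was 7.50 in IBA library 1, within the range of 7.35 to 7.60 of its state, and that of its oligodendrocyte markers was 7.14, the lowest of IBA. Its magnocellular markers were highest, at 6.46, where the other IBA libraries reached 6.25. Its astrocyte markers were lowest, at 9.003, but those of IBA library 5 were almost the same, at 9.008. IBA library 5 was lowest of its state for Egr1, Egr2, Egr4, Nr4a2 and Nr4a3. Torpor library 5 had the highest oligodendrocyte level of all libraries, 8.87, and the second lowest magnocellular level of torpor, 5.93. Its neuron level was also the highest of all libraries, at 7.73. The part of these differences in the levels of the members was not tested.

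**Figure D3:**
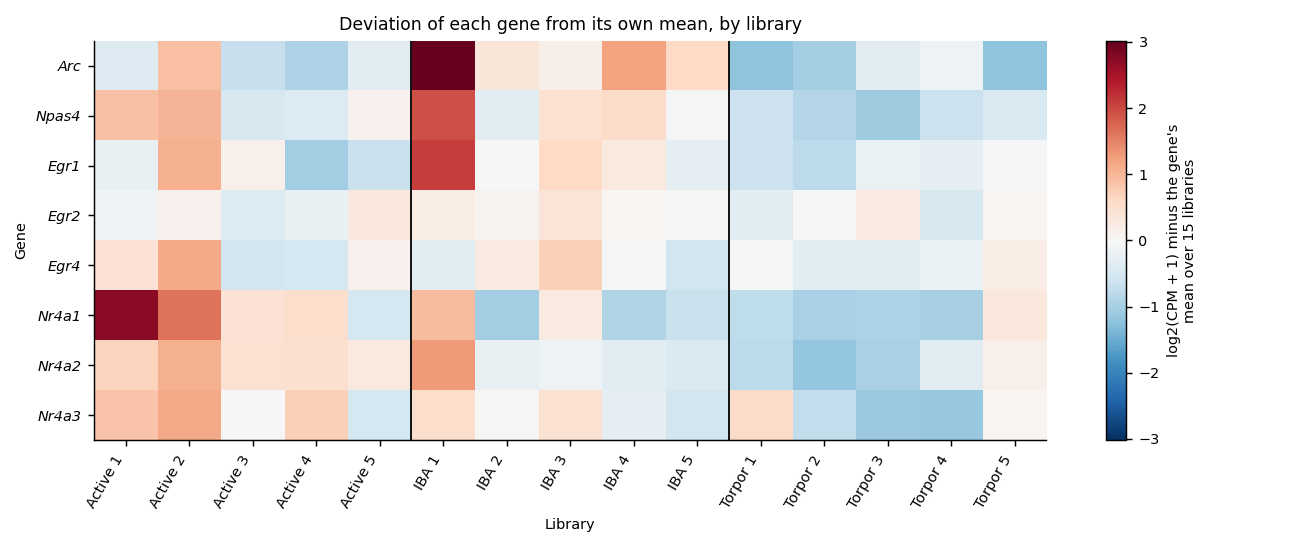
Deviation of log2(normalised CPM + 1) from the gene's mean over 15 libraries, with genes in rows and libraries in columns. Red is above and blue below the mean. IBA library 1 is the strongest red column for Arc, Npas4 and Egr1, and active library 1 for Nr4a1. Torpor columns are mostly blue.

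Within states, many pairs of members varied together. As a description over the 15 libraries, with each state's mean removed, r was 0.79 between Arc and Egr1, 0.76 between Arc and Npas4, and 0.77 between Egr1 and Npas4. Nr4a2 followed Egr1 (r = 0.80) and Npas4 (0.77), and Nr4a1 followed Npas4 (0.73), Nr4a3 (0.68), Nr4a2 (0.67) and Egr1 (0.60). Between Arc and Nr4a2 r was 0.66. Arc had little relation to Nr4a3 (0.05), Egr4 (0.08) or Nr4a1 (0.33). Without IBA library 1, over 14 libraries, r was 0.58 between Arc and Egr1, 0.50 between Arc and Npas4, 0.60 between Egr1 and Nr4a2, and 0.21 between Arc and Nr4a2. It was 0.67 between Nr4a1 and Npas4 and 0.37 between Arc and Egr4. Between Arc and Nr4a1 it was 0.02, and between Arc and Nr4a3 −0.20. Egr4 rose to 0.79 with Npas4, 0.69 with Egr1 and 0.60 with Nr4a2, from 0.41, 0.36 and 0.23 over all 15 libraries. The genes of a library share its depth and scaling. The states lay differently for Arc and Nr4a1. The log2 level of Arc minus that of Nr4a1 lay between −3.66 and −0.34 in the active state, −0.61 and 1.60 in IBA, and −2.04 and 0.33 in torpor. IBA library 3, at −0.61, was the one IBA library within the active range. Because these genes were paired after their values were seen, no test is given.

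**Figure D4:**
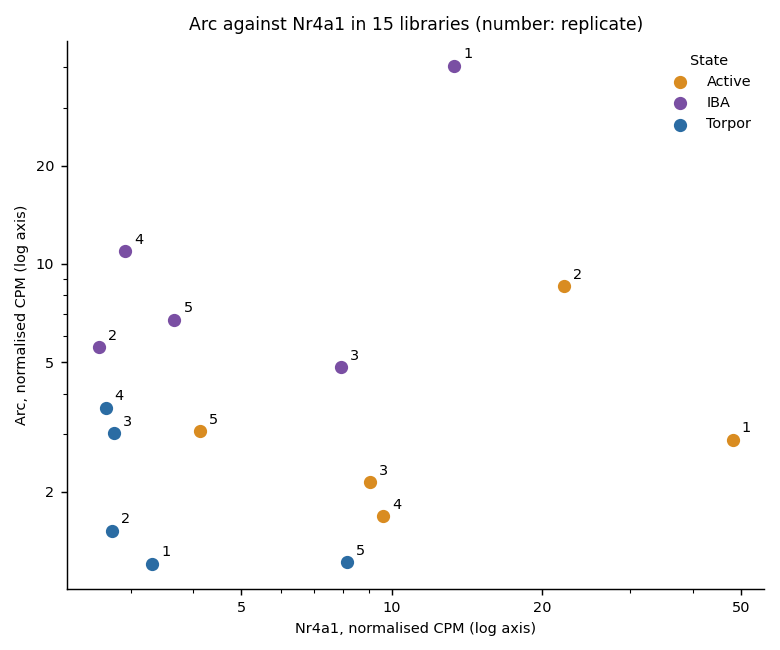
Arc against Nr4a1 in the 15 libraries, in normalised CPM on log axes, with replicate numbers. IBA libraries 1 and 4 lie at higher Arc than every active library, the other 3 lie below active library 2, and active libraries reach 48.1 of Nr4a1 at 2.89 of Arc. Torpor libraries lie low on both axes apart from library 5, at 8.15 of Nr4a1.

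Outside the set, the gene most like Nr4a2 over the 15 libraries was Fos, the AP-1 factor that is the standard marker of recent neuronal activity. Pearson's r was 0.93 among 11443 genes compared, and 0.86 with the state means removed. Fos stood at 169 in IBA library 1 and at 23.5 to 38.4 in the other IBA libraries, and Nr4a2 was likewise highest of its state in library 1. Nr4a1 was most like Sik1, a salt-inducible kinase that is itself induced by cAMP (r = 0.87, and 0.78 with state means removed), followed by Usp27x and Usp42 (0.86 and 0.85). The genes most like Arc were Smcr8, Kiaa1522 and Narfl (r from 0.78 to 0.82), and those most like Egr1 were Kiaa1522, Rtl1 and Celsr3 (0.75 to 0.81). Npas4 was most like Acvrl1 (0.87), Nr4a3 most like Nf1 (0.83) and Egr4 most like Wnk4 (0.83). With 11443 genes and 15 libraries some high values of r are found for any gene, so these are descriptions only.

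The related AP-1 factors did not move as one. Of 8 listed, 5 were tested: in torpor against active Fos fell, Junb rose and the other 3 did not pass. That was 40% of the 5, beside 19.5% of all genes. Fos fell by 2.22 ± 0.50, to 16.0 ± 8.18 from 79.8 ± 36.5 (adjusted p = 0.00798). Junb, which often restrains AP-1 activity, rose by 1.70 ± 0.56, to 10.6 ± 8.57 from 1.69 ± 0.686 (adjusted p = 0.0447), carried by torpor libraries 3, 4 and 5, and its call ended without any 1 of 8 libraries, these 3 among them. None of the 5 passed in the other comparisons.

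Other immediate early genes changed in both directions. Of 26 listed, 21 were tested. In torpor against active 6 rose and 5 fell, 52.4% beside 19.5% of all genes, with a median of 0.16. Rgs2, an inhibitor of G protein signalling, fell by 0.84 ± 0.16 (adjusted p = 0.00239), and Arl4d, a small GTPase, by 0.68 ± 0.13 (adjusted p = 0.00221). Klf6, a zinc finger factor, fell by 0.49 ± 0.10 (adjusted p = 0.00277). Ppp1r15a, a phosphatase subunit that restores translation after stress, rose by 0.65 ± 0.13 (adjusted p = 0.00330). These 4 calls held with every library left out. In torpor against IBA 3 rose and 3 fell, 28.6% beside 2.94% of all genes. Among them were Ppp1r15a, up by 0.65 ± 0.13, and Plk3, up by 0.66 ± 0.15 (adjusted p = 0.0169 and 0.0265). Rgs2 and Klf6 fell there by 0.72 ± 0.16 and 0.45 ± 0.10 (adjusted p = 0.0258 and 0.0216). Of these 4, Ppp1r15a alone kept its call without any single library. Between IBA and active, Plk2, a polo-like kinase induced by synaptic activity, rose by 0.57 ± 0.11, to 70.7 ± 8.23 from 47.4 ± 6.67 (adjusted p = 0.0204). The other 20 did not pass, so that 4.76% of the 21 were called, beside 1.30% of all genes. Plk2 lost its call with the neuron covariate (limma adjusted p = 0.0570) and with the replicate number as a block.

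The later wave of activity genes is known to depend in part on the immediate early factors. Of 16 tested in torpor against active, 3 rose and 1 fell, which is 25.0% beside 19.5% of all genes, with a median of −0.004. The neuronal pentraxins Nptx1 and Nptx2 and their receptor Nptxr, which cluster AMPA receptors, rose by 1.03 ± 0.33, 0.99 ± 0.24 and 0.75 ± 0.23 (adjusted p = 0.0397, 0.00777 and 0.0305). Inhba, a subunit of activin, fell by 0.72 ± 0.24 (adjusted p = 0.0470). Of these 4 calls, Nptx2 alone held with every library left out. Bdnf, the neurotrophin controlled by CREB and Npas4, differed by 0.23 ± 0.27 (adjusted p = 0.580). None of the 16 passed in IBA against active or in torpor against IBA. Of 8 feedback phosphatases and inhibitors tested, Dusp6, which inactivates ERK, fell in torpor against active by 0.53 ± 0.15 and against IBA by 0.66 ± 0.15 (adjusted p = 0.0232 and 0.0277), and Dusp10 rose against active by 0.47 ± 0.16 (adjusted p = 0.0419). Dusp6 lost its call against active without active library 4 or torpor library 4, and against IBA without any 1 of 6 libraries. Dusp10 lost its call without any 1 of 7. On this list 25.0% were called in torpor against active and 12.5% in torpor against IBA, beside 19.5% and 2.94% of all genes.

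Of 11 CREB and MEF2 factors and coactivators tested, 6 fell in torpor against active and 0 rose, where 9.74% of all genes fell. Whether they act on the members in this tissue was not tested. The list's median was −0.43. Crtc1, a coactivator of CREB, stood at 0.65 ± 0.23 (adjusted p = 0.0547), and Mef2a and Mef2c at 0.19 and 0.05 did not pass. Crebbp, the acetyltransferase that CREB recruits, fell by 0.66 ± 0.10, to 39.0 ± 2.87 from 62.4 ± 5.24 (adjusted p = 4.52e-04). Crem, the cAMP-responsive modulator, fell by 1.03 ± 0.20, Atf1 by 0.53 ± 0.12 and Creb1 itself by 0.43 ± 0.12 (adjusted p = 0.00207, 0.00700 and 0.0164). These 4 calls held with every library left out, and with both marker covariates Crebbp alone kept its call. In torpor against IBA Crebbp fell by 0.41 ± 0.10 and its homologue Ep300 by 0.60 ± 0.16 (adjusted p = 0.0346 and 0.0450), calls that ended without any 1 of 6 and of 7 libraries. Crem also fell in IBA against active, by 1.04 ± 0.20, to 17.2 ± 2.88 from 38.1 ± 13.9 (adjusted p = 0.0204), and the call ended without IBA library 4 (adjusted p = 0.0652). On the CREB and MEF2 list 18.2% were called in torpor against IBA and 9.09% in IBA against active, beside 2.94% and 1.30% of all genes. Of 6 SRF and ternary complex factors, none passed in any comparison. Srf differed by −0.53 ± 0.20 in torpor against active and by −0.62 ± 0.20 against IBA (adjusted p = 0.0698 and 0.0931).

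Of 28 calcium, cAMP and MAP kinases and phosphatases tested, 4 rose and 1 fell in torpor against active, 17.9% beside 19.5% of all genes, and none passed in the other comparisons. Rps6ka3, a kinase of CREB downstream of ERK, fell by 0.68 ± 0.12 (adjusted p = 0.00126). Camk2a, the calcium-dependent kinase of synapses, rose by 0.73 ± 0.16 and Rps6ka5, a kinase of CREB and histone H3, by 0.50 ± 0.13 (adjusted p = 0.00487 and 0.0115). Ppp3ca, a catalytic subunit of calcineurin, rose by 0.25 ± 0.08 (adjusted p = 0.0377), a call that ended without any 1 of 5 libraries. Of 10 partners and corepressors of the members, Arnt fell by 0.40 ± 0.12 in torpor against active (adjusted p = 0.0324), a call that ended without any 1 of 5 libraries. Arnt is a dimer partner of factors of the family of Npas4. Nab1 and Nab2, corepressors of the Egr factors, did not pass (adjusted p = 0.0525 and 0.959). Of 16 binding partners of Arc and factors of its turnover, Sh3gl3, an endophilin that works with Arc in receptor endocytosis, rose by 1.26 ± 0.16, to 67.8 ± 12.9 from 27.6 ± 4.88 (adjusted p = 1.30e-04), and also in IBA against active by 0.80 ± 0.16 (adjusted p = 0.0242), where the call ended without any 1 of 5 libraries. Sh3gl3 kept its call in torpor against active under all 24 alternatives. Wasf1, an actin regulator, rose in torpor by 0.43 ± 0.13 and Rnf216, a ubiquitin ligase of Arc, fell by 0.30 ± 0.08 (adjusted p = 0.0222 and 0.0150), the former losing its call without any 1 of 4 libraries. In torpor against active 18.8% of these 16 were called, and 10% of the 10 partners and corepressors, beside 19.5% of all genes. In IBA against active 6.25% of the 16 were called, beside 1.30%. Of the 34 genes called on these lists in torpor against active, 2, Crebbp and Sh3gl3, kept their call with both the oligodendrocyte and the neuron covariate. Of the 3 called in IBA against active and the 9 called in torpor against IBA, 0 kept their call with both. Since both covariates moved with the states, the lost calls do not show which genes depended on cell composition.

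**Figure D5:**
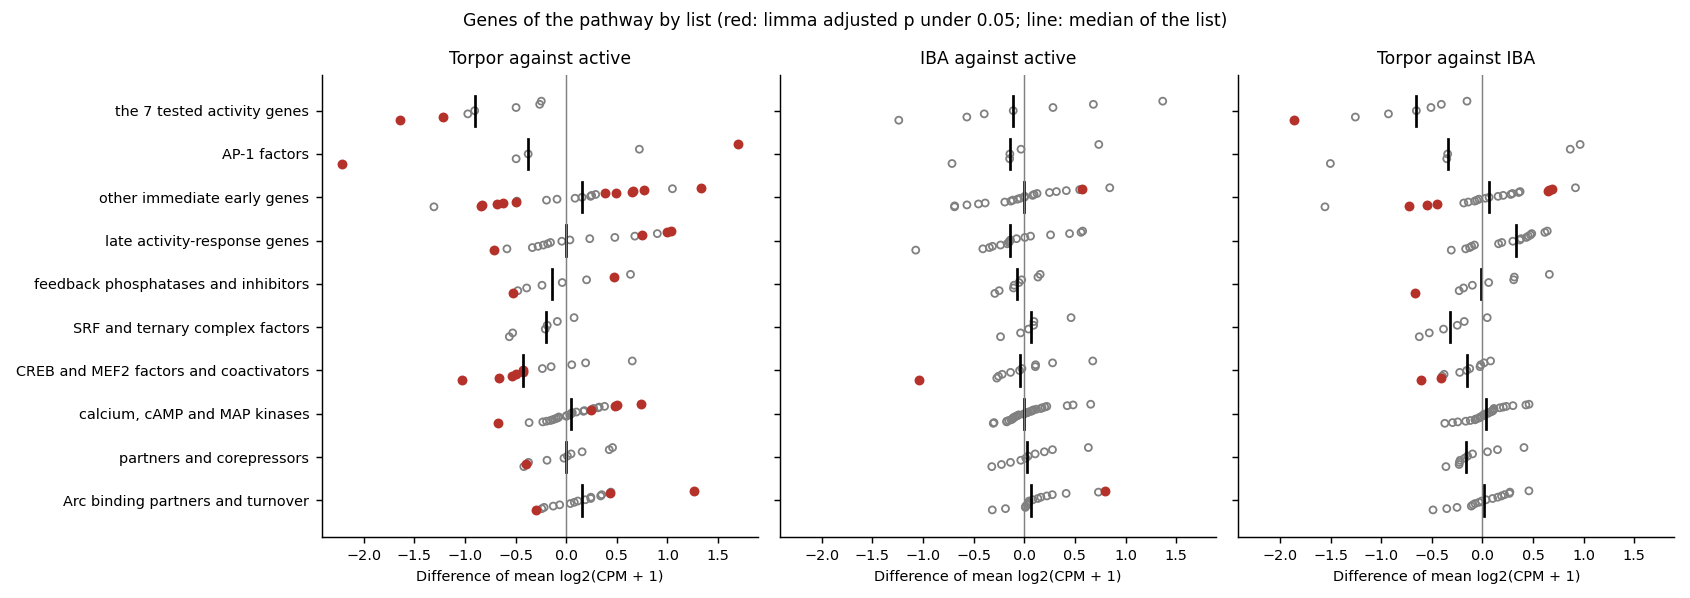
Difference of mean log2(normalised CPM + 1) of each gene tested, by list, in the 3 comparisons. Red points have a limma adjusted p under 0.05 and vertical lines are list medians. In torpor against active the medians were −0.90 for the 7 activity genes, −0.43 for the CREB and MEF2 list, −0.38 for the AP-1 factors and −0.20 for the SRF list, and most lists held genes on both sides of 0.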

How the data were processed

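The submitters' processing notes name R 4.2.1, edgeR 3.38.4, Subread 2.0.1 with featureCounts, STAR 2.7.7a and Trimmomatic 0.39, without their order. No genome build, annotation or strand setting is named in these sources. In the RefSeq gene table given for the species, whose assembly may differ from the authors', none of the 8 members overlapped another gene. The deposited per-library values are a signal, normalised CPM, and all lay within 0.1 read of whole multiples of 1 read. Log2 fold changes, an F score, and a p-value with a false discovery rate from 1 joint test stand beside them, per the file headers, and are quoted as the authors'.

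Tests used limma-trend (limma 3.58.1, R 4.3.3, robust) on log2(value + 1) of all 15 libraries, two-sided, with Benjamini-Hochberg adjustment over 15501 genes and a threshold of 0.05. The filter removed 1492 genes. Each member also had an unadjusted two-sided exact permutation test over 5 against 5 libraries in each of the 3 comparisons. Alternatives were other pseudocounts, no filter, other scalings, a block, marker covariates, libraries left out, and edgeR 4.0.16, DESeq2 1.42.0 and limma-voom on recovered read counts. The procedure was tested on simulated data.

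Members, lists, tests and alternatives were chosen with earlier results of these data known. The named pathway genes are the up to 4 of each list with the smallest adjusted p under 0.05. Bdnf, Srf, Nab1, Nab2, Crtc1, Mef2a and Mef2c did not meet this rule and were added after their values were seen. Genes most like a member are the 3 with the highest Pearson r and a mean log2 level of at least 2. Running the pathway genes under the alternatives, and the correlations without IBA library 1, were added after the data were seen.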

Additional observations from a re-analysis of the deposited data

Results flagged for a closer look

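Of 24 groups of 5 libraries, one for each of 8 genes in each state, 6 held a library far from the others. The rule flags about 1 in 20 by chance only if values follow a normal curve. It was applied to normalised CPM without logs, and all 6 flagged values were high ones. It was not run on the log2 scale used for the tests, so the count of 6 is not set against chance. IBA library 1 accounted for 4: Arc at 40.5 normalised CPM (next highest 10.9), Egr1 at 63.8 (22.2), Npas4 at 7.87 (2.37) and Nr4a2 at 14.9 (4.87). All 4 values come from 1 library and are not separate observations. The others were Arc at 8.55 in active library 2 (3.07) and Nr4a1 at 8.15 in torpor library 5 (3.32). What sets these libraries apart was not tested.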

How the results depend on the processing

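Of 2 members called in torpor against active, 1 was called with a pseudocount of 5, by limma-voom, or without torpor libraries 4 and 5, and 0 with the oligodendrocyte or the neuron markers as a covariate. With the 10 libraries compared alone it stayed 2, but Npas4 (adjusted p = 0.0382) took the place of Nr4a1 (0.0644). A pseudocount of 0.1, edgeR and DESeq2 gave 3, with Npas4. Leaving out 1 library gave 1 to 3. In IBA against active DESeq2 called 1, and 0 were called otherwise. The 1 call in torpor against IBA, Arc, became 2 with a pseudocount of 0.1, edgeR with either scaling, or DESeq2 (Npas4 was the other). It became 0 with a pseudocount of 5, no filter, only the 10 libraries compared, median-of-ratios scaling, limma-voom, either covariate, torpor libraries 4 and 5 left out, or any 1 library left out, so the range is 0 to 0. Replicate numbers did not pair the libraries: same-numbered libraries had correlations of their deviations from −0.317 to 0.203. With the replicate number as a block 2, 0 and 0 members were called, and Arc in torpor against IBA had an adjusted p of 0.115.

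Directions changed where no call was made. With the oligodendrocyte covariate, Arc and Egr1 were at 0.14 and 0.16 in torpor against active. Leaving out 1 library, the range was −0.47 to 0.060 for Egr1 in that comparison, −0.28 to 0.14 for Egr4 and −0.078 to 0.50 for Npas4 in IBA against active, and −0.29 to 0.022 for Egr4 in torpor against IBA. Of 504 values of single members under the alternatives, 7 changed direction.

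Over all genes, 3018, 202 and 455 were called in torpor against active, IBA against active and torpor against IBA. With the oligodendrocyte covariate the first 2 counts were 668 and 18, and with the neuron covariate the 3 counts were 291, 26 and 99. The block gave 37 and 155 for the last 2, the 10 libraries compared 385 and 262, DESeq2 862 and 1033, and limma-voom 702 and 700. Without torpor libraries 4 and 5, IBA against active gave 357. Scaling by library size gave 859 for torpor against IBA, 92 higher and 767 lower, and 1053 higher and 2273 lower for torpor against active (1508 and 1510 otherwise). Leaving out 1 library gave 26 to 116 in the 8 cases of IBA against active that moved by over 1.5 times, and 159 to 276 in the 7 of torpor against IBA. Of the 34 pathway genes called in torpor against active, 19 held with every library left out and 2 with both covariates. Reads of Egr2, Egr4, Nr4a3 and Npas4 numbered under 20 in some libraries, which limits what their values can show.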
